A study of Mus musculus with 6 samples.

Results

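The genes described here are 10 transcription factor genes of the AP-1 and immediate early class, namely the FOS family genes Fos, Fosb, Fosl1 and Fosl2, the JUN family genes Jun, Junb and Jund, and Atf3, Batf3 and Egr1. They were chosen by gene symbol, and all 10 were found once each among the 54532 genes of the expression table. Expression was measured by poly(A) RNA sequencing in primary mouse brain microvascular endothelial cells, the cells that line brain capillaries, grown to confluence from vessel fragments of wild-type (WT) C57BL/6J mice after puromycin selection. The IL-36β group (3 libraries) received processed mouse IL-36β, written DEVD mIL-36β in the labels, at 100 ng/ml for 24 h. The untreated group (3 libraries) received nothing, and its labels name no vehicle and state no time in hours. The library names end in 24 for the IL-36β cells and in a different number for the untreated cells. What these numbers stand for is not stated. If they are hours, the groups also differ in time, and the part of time was not tested. Whether libraries of the same group are separate animals or separate cultures is not stated in the labels, and p-values here measure only the spread between these libraries. Both groups were sampled once, so earlier changes were not measured here. In bulk RNA, fewer cells of a type and less RNA per cell cannot be told apart.

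AP-1 is a family of dimers of basic leucine zipper proteins. JUN proteins pair with each other or with FOS proteins, which cannot form stable dimers among themselves, and the dimers bind a short palindromic DNA element. FOS, FOSB, JUN, JUNB, ATF3 and the zinc finger protein EGR1 are products of immediate early genes, transcribed without new protein synthesis when serum, cytokines or stress activate MAP kinases, and their transcripts usually last for a short time. FOSL1 (FRA-1) and FOSL2 (FRA-2) lack the strong activation domain of FOS and typically follow it. Interleukin-1 family receptors signal to MAP kinases as well as to NF-κB, which is why AP-1 genes are of interest in cells given IL-36β.

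The 250 bases upstream of the start are shown for 4 members whose RefSeq start lay within 30 bases of the gene start in the deposited table: Fos and Fosb, whose mean levels were lower with IL-36β, and Jun and Junb, whose mean levels were not. Sequences are those of RefSeq on GRCm38.p6, 5′ to 3′ on the strand of the gene. They are chr12:85473640-85473889 (plus strand) for Fos, chr7:19310046-19310295 (minus strand) for Fosb, chr4:95052223-95052472 (minus strand) for Jun and chr8:84978749-84978998 (minus strand) for Junb. Capitals mark matches, on either strand, to the motifs named below.
Fos: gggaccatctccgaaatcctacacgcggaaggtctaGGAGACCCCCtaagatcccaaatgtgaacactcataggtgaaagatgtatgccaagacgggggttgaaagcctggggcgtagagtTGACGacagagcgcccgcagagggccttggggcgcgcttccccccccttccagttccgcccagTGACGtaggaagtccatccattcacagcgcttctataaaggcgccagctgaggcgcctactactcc
Fosb: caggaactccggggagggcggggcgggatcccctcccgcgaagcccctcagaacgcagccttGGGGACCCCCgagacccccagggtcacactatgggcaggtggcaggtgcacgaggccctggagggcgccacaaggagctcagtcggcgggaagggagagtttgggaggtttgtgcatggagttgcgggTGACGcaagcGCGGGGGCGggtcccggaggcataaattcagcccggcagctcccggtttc
Jun: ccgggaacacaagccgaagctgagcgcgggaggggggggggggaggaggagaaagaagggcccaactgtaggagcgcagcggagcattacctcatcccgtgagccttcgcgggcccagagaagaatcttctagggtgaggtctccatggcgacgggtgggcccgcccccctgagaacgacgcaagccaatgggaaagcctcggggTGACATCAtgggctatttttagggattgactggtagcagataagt
Junb: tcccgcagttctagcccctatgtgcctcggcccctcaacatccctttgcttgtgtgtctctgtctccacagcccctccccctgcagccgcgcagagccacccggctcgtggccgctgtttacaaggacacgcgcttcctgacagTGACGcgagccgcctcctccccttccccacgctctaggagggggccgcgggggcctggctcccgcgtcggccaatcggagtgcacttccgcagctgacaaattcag

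Of the 10 members, 8 had a promoter in the RefSeq table, and Fosl1 and Egr1 had none. The RefSeq start lay 567, 671, 1210 and 34706 bases from the deposited gene start in Batf3, Fosl2, Jund and Atf3. Their windows are therefore not the bases just before the deposited start. The G and C content of the 8 windows was 47.6 to 76.0%, against a median of 52.4% over all promoters. Its part in the matches was not tested. The AP-1 site TGANTCA matched in 0 of the 8 windows of 250 bases, and in 6.75% of 32807 promoters of the same length. The CRE-like site TGACNTCA, bound by JUN and ATF dimers, matched in 1 of the 8, as TGACATCA from -45 to -38 in Jun, and in 7.5% of all promoters. Its half-site TGACG, which the full site contains where N is G, matched in 4 of the 8, namely Fos, Fosb, Junb and Atf3 (whose window belongs to a start inside the deposited gene), and in 17.8% of all promoters; this motif was chosen after the windows were seen. In Fos it began at positions -66 and -129 from the start, with a TATAAA box at -33; TATAAA was sought only on the strand of the gene, is not in capitals, and matched in 7.60% of all promoters. The κB consensus matched in Fos, Fosb and Fosl2 and in 7.25% of all promoters, and the EGR site GCGNGGGCG matched in Fosb and Fosl2 and in 4.70%. The CArG box, the serum response element, matched in 0 of the 8 and in 1.47% of all promoters. Bases farther than 250 upstream were not searched, and Egr1 had no window. This count therefore cannot tell whether Fos or Egr1 has such an element. A match is a run of letters in this window and not evidence of binding.

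Transcripts of 9 of the 10 members were detected well enough to be tested, using a minimum of 0.5 FPKM (fragments per kilobase of gene length, scaled to library depth by the authors) in 3 or more of the 6 libraries. None of these 9 passed the threshold, a Benjamini-Hochberg adjusted p under 0.05 in limma, against 0.182% of all 12618 genes tested. At an unadjusted p under 0.05 there were 3 members, Fosl1 with a higher mean and Fos and Fosb with lower means in IL-36β cells, against 10.4% of all genes. The groups did not overlap in Fosl1, which was higher with IL-36β (8.95% of all genes did so), and in Fosb, which was lower (7.24%). No member passed in DESeq2 (2.10% of genes), in edgeR (0.293%) or in limma with the library set as a term (0.808%). The labels give each library a letter, and 1 set takes letters A and B, with IL-36β replicate 1 and untreated replicates 1 and 2. The other set takes D and E, with IL-36β replicates 2 and 3 and untreated replicate 3. Between these sets 1.74% of all genes differed, and none of the 9 members did so at an adjusted p under 0.05 in limma. The choice of these sets goes back to an earlier look at the same data, so intervals and p-values that use them may overstate the evidence. The median fitted log2 fold change was -0.06 over the 9 members and 0.0023 over all genes tested, with 4 members above 0 and 5 below.

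**Figure D1:**
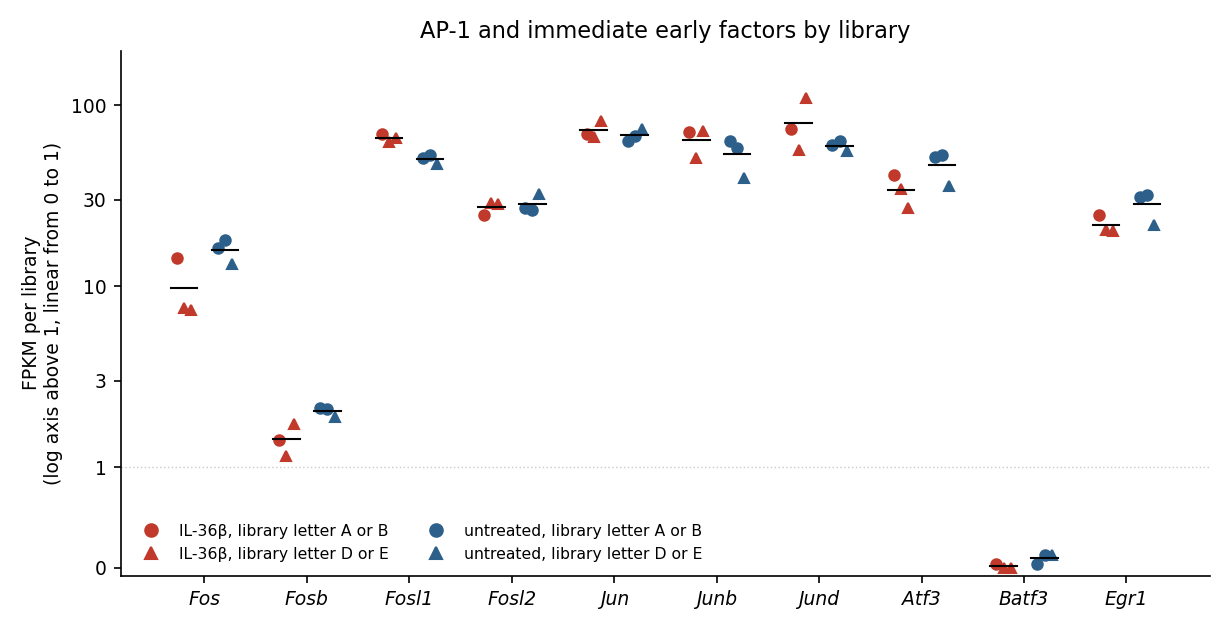
FPKM of the 10 members in each library (points) with group means (lines), IL-36β at the left of each pair and untreated at the right; the vertical axis is logarithmic above 1 and linear from 0 to 1. Fosl1 is higher in all 3 IL-36β libraries (62.9 to 69.5 FPKM) than in the untreated ones (47.2 to 53.2), Fosb is lower in all 3, and Batf3 lies near 0 in every library.

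Among the FOS family, Fosl1 showed the smallest p of the 10 members. Fosl1 (ENSMUSG00000024912, chromosome 19, 5447703 to 5455945, plus strand, GRCm38) encodes FRA-1, which lacks a strong activation domain and often accumulates after sustained MAP kinase signalling. It stood at 69.5, 62.9 and 65.9 FPKM in IL-36β replicates 1 to 3, against 51.4, 53.2 and 47.2 FPKM in untreated replicates 1 to 3. All 3 IL-36β libraries were above all 3 untreated ones. Its fold change, on the log2(FPKM + 0.5) scale used throughout, was 1.30 with a 95% confidence interval of 1.12 to 1.51 (limma unadjusted p = 0.0036), and it ranked 212 of 12618 genes by p. The adjusted p was 0.212 in limma and 0.0825 to 0.538 over the alternative settings. The difference was close in size in both library sets, at 1.33-fold within A and B and 1.36-fold within D and E, and leaving out any 1 library gave folds of 1.26 to 1.34. These levels rested on 1764 to 2047 reads in IL-36β libraries and 1240 to 1840 in untreated ones.

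Fos (ENSMUSG00000021250, chromosome 12, 85473890 to 85477273, plus strand) encodes the prototype partner of JUN. Its level was 14.4, 7.60 and 7.39 FPKM in IL-36β replicates 1 to 3 and 16.2, 18.1 and 13.3 FPKM in untreated replicates 1 to 3. IL-36β replicate 1 lay inside the untreated range, and the other 2 IL-36β libraries lay below it. The fold was 0.61 (95% confidence interval 0.40 to 0.91; limma unadjusted p = 0.0219, adjusted p = 0.399), the largest departure from 1 among the 9 members tested. The groups differed less within set A and B, where the fold was 0.84, than within set D and E, where it was 0.58; this contrast between the sets was not tested. Libraries D and E were also lower than A and B by a fold of 0.65 (95% confidence interval 0.52 to 0.82; limma adjusted p = 0.0887), and with the set as a term the fold for IL-36β was 0.70 (0.56 to 0.88; limma adjusted p = 0.195). Without IL-36β replicate 1 the fold was 0.49 with an unadjusted limma p of 0.000282 and an adjusted p of 0.138, the lowest over the alternative settings, where it reached up to 0.867.

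Fosb (ENSMUSG00000003545, chromosome 7, 19302696 to 19310051, minus strand) encodes a FOS relative with a splice form that lacks the activation domain; forms were not separated in this table. It was expressed at 1.41, 1.15 and 1.73 FPKM in IL-36β cells, against 2.11, 2.10 and 1.89 FPKM in untreated cells. Every IL-36β library was below every untreated one. The fold was 0.76 (95% confidence interval 0.59 to 0.97; limma unadjusted p = 0.0304, adjusted p = 0.434). Its within-set folds were 0.74 (A, B) and 0.80 (D, E), on 118 to 265 reads per library. With the set as a term the fold was 0.77, and its 95% confidence interval, 0.59 to 1.00, reached 1 (limma unadjusted p = 0.0501, adjusted p = 0.367). Over the alternative settings the adjusted p ranged from 0.295 to 0.875.

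Fosl2 (ENSMUSG00000029135, chromosome 5, 32135801 to 32157842, plus strand) encodes FRA-2. It was 24.7, 28.9 and 28.5 FPKM in IL-36β cells and 27.0, 26.3 and 32.2 FPKM in untreated cells, with overlapping groups. The fold was 0.96 (95% confidence interval 0.80 to 1.16), so that neither a fall below 0.80-fold nor a rise above 1.16-fold lay within the interval.

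**Figure D2:**
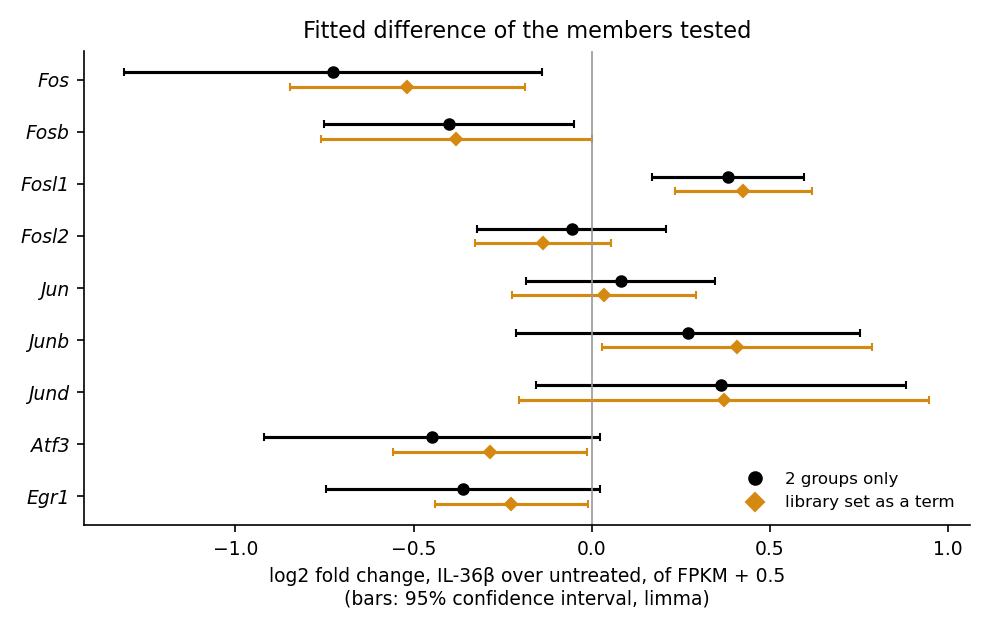
Fitted log2 fold change of each tested member, IL-36β over untreated, of FPKM + 0.5, with 95% confidence intervals from limma; circles are the fit with the 2 groups and diamonds the fit with the library set as a term. The intervals of Fos, Fosb and Fosl1 lie on 1 side of 0 in the fit with the 2 groups, at -0.72, -0.40 and 0.38, while in that fit those of Fosl2, Jun, Junb, Jund, Atf3 and Egr1 include 0.

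The 3 JUN family genes were the members with the highest mean FPKM over all libraries, and each stood between 39.8 and 109.5 FPKM in every library. Jun (ENSMUSG00000052684, chromosome 4, 95049034 to 95052222, minus strand), the founding AP-1 subunit, was 69.1, 66.5 and 82.1 FPKM in IL-36β cells and 63.7, 67.4 and 74.1 FPKM in untreated cells. The groups overlapped, and the fold was 1.06 (95% confidence interval 0.88 to 1.27). The sign of this small difference was not stable: the fold was 0.99 without IL-36β replicate 3 and 1.00 after rescaling to a common sum per library. The antisense gene Junos shares 689 bases with Jun and had 10 to 16 reads in IL-36β libraries and 5 to 20 in untreated ones.

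Junb (ENSMUSG00000052837, chromosome 8, 84974484 to 84978718, minus strand) encodes a weaker activator that can restrain JUN. It was 70.8, 51.1 and 71.8 FPKM in IL-36β cells and 63.5, 58.2 and 39.8 FPKM in untreated cells. IL-36β replicate 2 lay within the untreated range, while IL-36β replicates 1 and 3 lay above it. The fold was 1.21 (95% confidence interval 0.86 to 1.68; limma adjusted p = 0.670). Its within-set folds were 1.16 (A, B) and 1.52 (D, E), and with the set as a term 1.33 (1.02 to 1.73; limma adjusted p = 0.338). Over the alternative settings the adjusted p ranged from 0.338 to 0.909. Prdx2, on the opposite strand, shares 351 bases with Junb and had 3318 to 4113 reads in IL-36β libraries and 3037 to 4390 in untreated ones; how the authors' counting treated strand is not stated in the labels, so reads from the shared bases cannot be assigned with certainty.

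Jund (ENSMUSG00000071076, chromosome 8, 70698949 to 70700616, plus strand), the JUN protein present in most resting cells, was 73.8, 56.3 and 109.5 FPKM in IL-36β cells and 60.3, 63.4 and 55.8 FPKM in untreated cells. IL-36β replicate 2 lay inside the untreated range, and IL-36β replicates 1 and 3 lay above it. The fold of 1.29 (95% confidence interval 0.90 to 1.84; limma adjusted p = 0.602) was 1.08 without IL-36β replicate 3 and 1.5 without IL-36β replicate 2 (limma adjusted p = 0.868 and 0.290).

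The authors' deposited table of 660 genes includes Fosl1 and Junb and no other member. The authors' deposited table gives log2 fold changes of 0.48 for Fosl1 and 0.65 for Junb, with unadjusted p-values of 0.0307 and 0.0454 and an adjusted p of 0.999 for both. Which libraries entered that comparison is not stated, and the same table also holds columns of libraries without a sample label. DESeq2 on the reads of these 6 libraries gave log2 fold changes of 0.38 for Fosl1 and 0.25 for Junb (adjusted p = 0.0825 and 0.747).

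Atf3 (ENSMUSG00000026628, chromosome 1, 191170296 to 191218039, minus strand) encodes a stress-induced factor that pairs with JUN proteins and, as a homodimer, represses. It stood at 41.3, 34.3 and 27.0 FPKM in IL-36β cells and at 51.6, 53.2 and 35.8 FPKM in untreated cells. IL-36β replicate 1 was above untreated replicate 3, so the groups overlapped by that pair. The fold was 0.73 (95% confidence interval 0.53 to 1.02; limma adjusted p = 0.503). Its within-set folds were 0.79 (A, B) and 0.85 (D, E), and with the set as a term 0.82 (0.68 to 0.99; limma adjusted p = 0.349, and 0.251 to 0.891 over the alternative settings).

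Batf3 (ENSMUSG00000026630, chromosome 1, 191097847 to 191108945, plus strand), known as a partner of JUN proteins in dendritic cells, was at the limit of detection. It had 1, 0 and 0 reads in IL-36β replicates 1 to 3 and 1, 4 and 3 reads in untreated replicates 1 to 3, of 15180389 to 19544689 reads in genes per library. Its highest level was 0.124 FPKM, in untreated replicate 2; it was not tested in the main fit, and no fold is given at this depth.

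Egr1 (ENSMUSG00000038418, chromosome 18, 34859823 to 34864984, plus strand) encodes a zinc finger factor induced, as Fos is, through serum response elements. It was 24.9, 20.4 and 20.1 FPKM in IL-36β cells, against 31.3, 31.9 and 21.9 FPKM in untreated cells. The groups overlapped only in that IL-36β replicate 1 exceeded untreated replicate 3. The fold was 0.78 (95% confidence interval 0.60 to 1.02; limma adjusted p = 0.509). Its within-set folds were 0.79 (A, B) and 0.93 (D, E), and with the set as a term 0.86 (0.74 to 0.99; limma adjusted p = 0.349, and 0.270 to 0.892 over the alternative settings).

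Fos, Atf3 and Egr1 shared 1 order of the libraries. Each was highest in untreated replicate 2, followed by untreated 1, IL-36β 1, untreated 3, IL-36β 2 and IL-36β 3. Of all 12618 genes tested, 98 (0.777%) had this order; it was noticed in these values and is a description of 6 libraries. The libraries of set D and E were lower than those of A and B in all 3 genes with the group as a term, with folds of 0.65 for Fos, 0.71 for Atf3 (95% confidence interval 0.59 to 0.86; limma adjusted p = 0.101) and 0.76 for Egr1 (0.65 to 0.88; limma adjusted p = 0.0890). Fosl2 lay in the opposite direction, at 1.18-fold in D and E over A and B (1.04 to 1.35; limma adjusted p = 0.213). Set and treatment are unevenly crossed, with the letters D or E on 2 of the 3 IL-36β libraries and 1 of the 3 untreated libraries, and the part of the set in these values was not tested further.

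**Figure D3:**
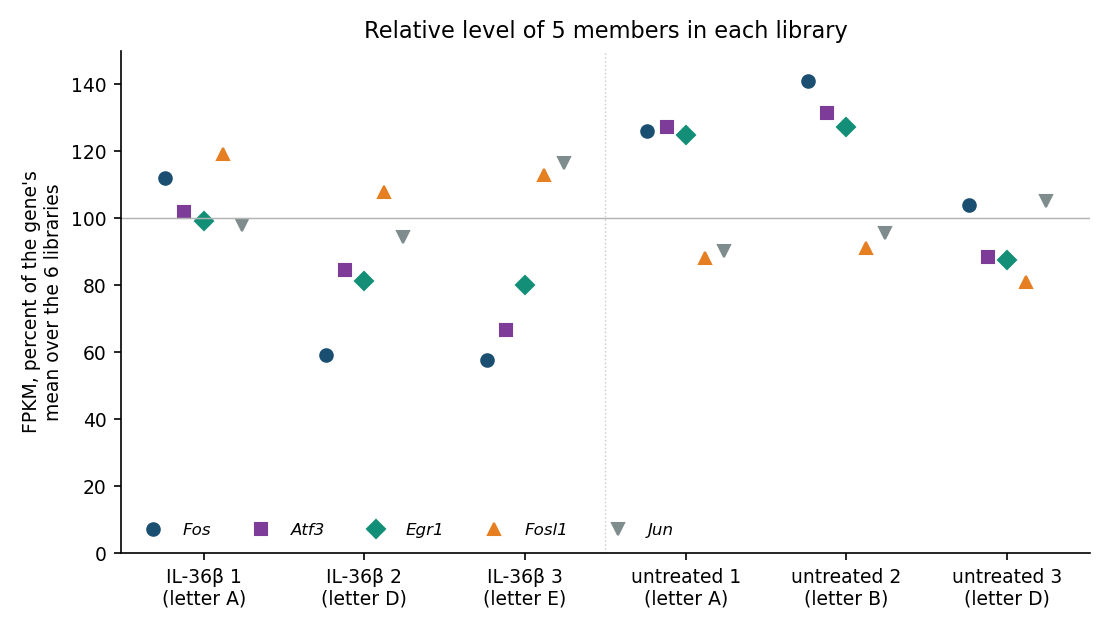
FPKM of Fos, Atf3, Egr1, Fosl1 and Jun in each library as a percentage of the mean of that gene over the 6 libraries, IL-36β libraries at the left and untreated ones at the right of the dotted line. Fos, Atf3 and Egr1 take the same order in all 6 libraries and are lowest in IL-36β replicate 3, while all 3 Fosl1 points are above 100% in IL-36β cells and below it in untreated cells.

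By level per length, Jun, Junb, Jund and Fosl1 had group means of 50.6 to 79.9 FPKM, Atf3, Fosl2 and Egr1 had group means of 21.8 to 46.9 FPKM, and Fos, Fosb and Batf3 ranked 8, 9 and 10 in every library. The first of these sets of genes was not separate from the next in untreated cells, where Atf3 (46.9 ± 9.62 FPKM) and Fosl1 lay within the larger SD of the pair and Atf3 ranked above Fosl1 in replicates 1 and 2. In IL-36β cells the 4 highest means were 79.9 ± 27.1 for Jund, 72.5 ± 8.36 for Jun, 66.1 ± 3.34 for Fosl1 and 64.6 ± 11.7 for Junb, and in untreated cells 59.8 ± 3.84, 68.4 ± 5.31, 50.6 ± 3.06 and 53.9 ± 12.4 FPKM for the same genes (SD, n = 3 each). In IL-36β cells each neighbour in this order lay within the larger SD of the pair. Jun had the highest level of the 10 in all 3 untreated libraries and in IL-36β replicate 2, and Jund in IL-36β replicates 1 and 3.

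Within the FOS family the transcript pool was made up mostly of Fosl1. Fosl1 took 63.2, 62.5 and 63.7% of the summed FPKM of the 4 FOS genes in IL-36β replicates 1 to 3, against 53.2, 53.4 and 49.9% in untreated replicates 1 to 3. Fos took 13.05, 7.56 and 7.14% in IL-36β cells and 16.7, 18.1 and 14.1% in untreated cells. Neither share overlapped between the groups. The shares are parts of 1 sum, so a larger share of Fosl1 leaves less for Fos, and the FPKM of Fos itself overlapped between the groups. The ratio of Fosl1 to Fos was 4.84, 8.27 and 8.93 in IL-36β libraries and 3.18, 2.94 and 3.54 in untreated ones. These shares were computed after the single genes were seen and carry no test. The summed level of the FOS family was 100.5 to 110.0 FPKM with IL-36β and 94.7 to 99.7 FPKM without, and that of the JUN family 174 to 263 and 170 to 189 FPKM. The FOS sum was 39.3 to 57.8% of the JUN sum in IL-36β libraries and 51.6 to 55.8% in untreated ones. Protein levels and dimers were not measured here.

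**Figure D4:**
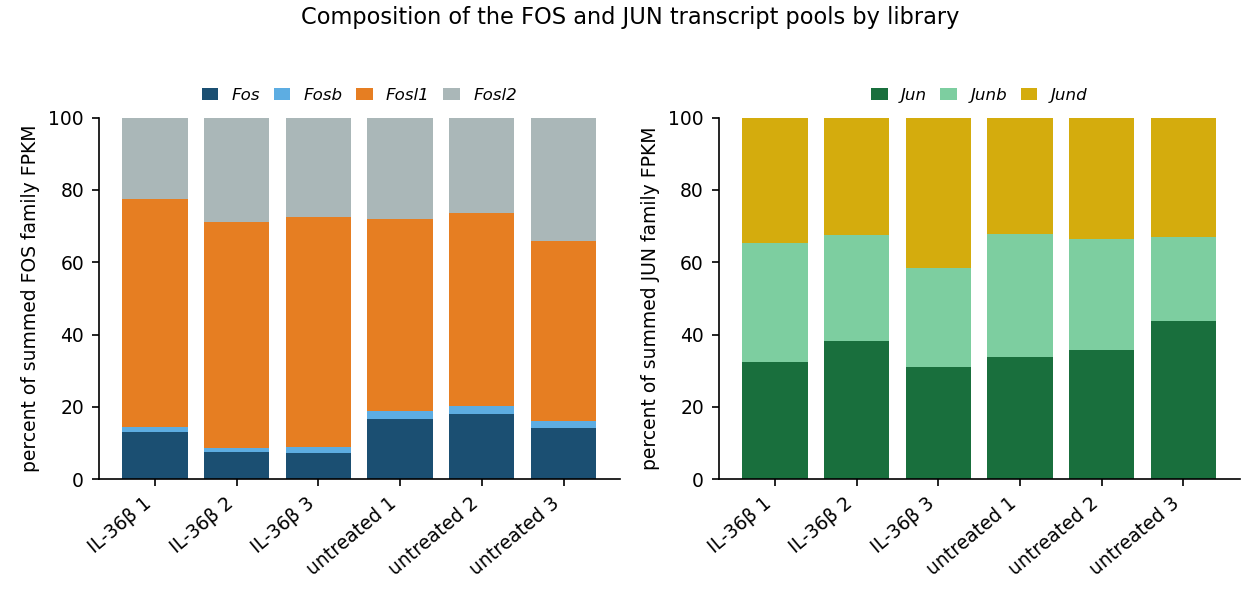
Share of each gene in the summed FPKM of the FOS family (left) and the JUN family (right), in percent, per library, with the 3 IL-36β libraries at the left of each panel and the 3 untreated ones at the right. The Fosl1 share is 62.5 to 63.7% in IL-36β libraries and 49.9 to 53.4% in untreated ones, and Jund has its largest share of the JUN family, 41.6%, in IL-36β replicate 3.

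Other partners of AP-1 dimers did not pass the threshold. Of 12 genes in this list, among them the MAF proteins, BATF proteins, JDP2 and ATF factors, all 12 were tested and none passed in limma, edgeR or DESeq2; 2 had an unadjusted p under 0.05, both with lower means in IL-36β cells, where the share over all genes was 10.4%. The most abundant were Atf4, a factor of the integrated stress response, and Maff, a small MAF protein without an activation domain. Atf4 was 194 ± 24.1 FPKM with IL-36β and 207 ± 28.4 FPKM without (SD, n = 3 each), a fold of 0.93 (95% confidence interval 0.74 to 1.18). Maff had a fold of 0.90 (0.77 to 1.06). The list had a median log2 fold change of -0.12.

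Other immediate early genes did not share a direction. Of 21 genes 18 were tested, and limma and edgeR called none of them. An unadjusted limma p under 0.05 was found for 7, of which 5 had higher and 2 lower means with IL-36β (over all 12618 genes, 10.4%, with 752 higher and 556 lower), and the median log2 fold change of the list was -0.0027. DESeq2 called 5, against 2.10% of all genes. These, chosen after their values were seen, were Gadd45b, Rhob and Trib1 on the higher side and Csrnp1 and Arc on the lower side. Gadd45b, a stress-inducible regulator of MAP kinase signalling, was 98.4 ± 4.51 FPKM with IL-36β and 66.0 ± 7.37 FPKM without (SD, n = 3 each), with a fold at 1.49 (95% confidence interval 1.25 to 1.77; limma adjusted p = 0.131, DESeq2 adjusted p = 0.00152). Rhob, a short-lived small GTPase, had a fold of 1.66 (1.24 to 2.22; limma adjusted p = 0.224, DESeq2 adjusted p = 0.00209). Trib1, a pseudokinase that targets C/EBP factors for degradation, had a fold of 1.63 (DESeq2 adjusted p = 0.00222). Arc, best known as an activity-regulated gene of neurons, had 1.67 ± 0.21 FPKM in IL-36β cells and 3.53 ± 0.938 FPKM in untreated cells, with a fold at 0.55 (0.40 to 0.75; limma adjusted p = 0.193, DESeq2 adjusted p = 0.00451). Csrnp1, a nuclear factor induced by AXIN1, had a fold of 0.64 (0.51 to 0.79; DESeq2 adjusted p = 0.00439). Ier3, a regulator of NF-κB and survival, passed with the library set as a term (fold 2.83; limma adjusted p = 0.0026) and with a replicate block by library letter (limma adjusted p = 0.0122), but not in the main fit (fold 1.95; limma adjusted p = 0.589). Its level was 175 ± 115 FPKM in IL-36β cells and 89.8 ± 47.4 FPKM in untreated cells, with within-set folds of 2.62 (A, B) and 3.07 (D, E). The most abundant genes of the list were Ccn2 and Ccn1 (Ctgf and Cyr61 in the table), matrix proteins that also answer to YAP, with folds of 0.88 (0.62 to 1.23) and 1.00 (0.75 to 1.34).

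The kinases upstream of AP-1 and the genes that feed back on them were likewise without a call in limma or edgeR. Of 17 genes of the MAP kinase cascade and serum response factors 16 were tested, of which 5 had an unadjusted limma p below 0.05 (10.4% over all genes) and none passed in DESeq2 (median log2 fold change -0.0083). Mapk3, which encodes ERK1, had a fold of 1.11 (0.94 to 1.31), and Map2k3, which activates p38, had a fold of 1.00 (0.81 to 1.24). Map3k8, the kinase TPL2 that links NF-κB p105 to ERK, was 1.47 ± 0.438 and 0.655 ± 0.334 FPKM in IL-36β and untreated cells (SD, n = 3 each). It passed with the library set as a term (fold 2.02; limma adjusted p = 0.0468) but not in the main fit (fold 1.73; limma adjusted p = 0.397). Of 16 MAP kinase and EGR feedback genes 15 were tested, of which 5 had an unadjusted limma p below 0.05 (10.4% over all genes) and 2 passed in DESeq2 (2.10% over all genes), which were named after their values were seen (median log2 fold change 0.04). Dusp4, a nuclear phosphatase of ERK, had 8.53 ± 1.23 FPKM in IL-36β cells and 16.8 ± 6.36 FPKM in untreated cells, with a fold at 0.55 (0.35 to 0.85; limma adjusted p = 0.351, DESeq2 adjusted p = 0.0093). Spry4, an inhibitor of receptor tyrosine kinase signalling, had 24.7 ± 1.79 FPKM in IL-36β cells and 16.1 ± 2.96 FPKM in untreated cells, with a fold at 1.53 (1.22 to 1.93; limma adjusted p = 0.20, DESeq2 adjusted p = 0.0125). Dusp1 and Dusp5, the most abundant of the list, had folds of 1.16 (0.91 to 1.47) and 1.19 (0.96 to 1.46).

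Among 17 genes known from other work as AP-1 targets, 16 were tested. Il6 alone passed in the main limma fit and in edgeR, against 0.182% and 0.293% of all genes. With the library set as a term Ccl2 and Lif passed as well (limma adjusted p = 0.0131 and 0.0308), against 0.808% of all genes. Il6, an inflammatory cytokine with AP-1 and κB elements in its promoter, rose to 5.28, 6.74 and 5.00 FPKM in IL-36β replicates 1 to 3, against 0.355, 0.386 and 0.134 FPKM in untreated replicates 1 to 3 (limma adjusted p = 0.00633). DESeq2 also called Ccl2, Lif and Tgfb1, all with higher means with IL-36β, against 2.10% of all genes. They were named after their values were seen. Ccl2, a chemokine that draws monocytes, averaged 1321 ± 171 FPKM in IL-36β cells and 307 ± 145 FPKM in untreated cells (SD, n = 3 each), with a fold at 4.71 (2.56 to 8.67; limma adjusted p = 0.107). Lif, a cytokine of the IL-6 family, was 7.04 ± 0.511 and 2.28 ± 1.18 FPKM in IL-36β and untreated cells (SD, n = 3 each), a fold of 2.92 (limma adjusted p = 0.159). Tgfb1 had a fold of 1.62 (1.22 to 2.14; limma adjusted p = 0.231). The list had 11 fitted log2 fold changes above 0 and 5 below, with a median log2 fold change of 0.25; over all genes tested 50.5% were above 0 and the median was 0.0023. Many of these genes are also targets of NF-κB, and the part of AP-1 was not tested.

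**Figure D5:**
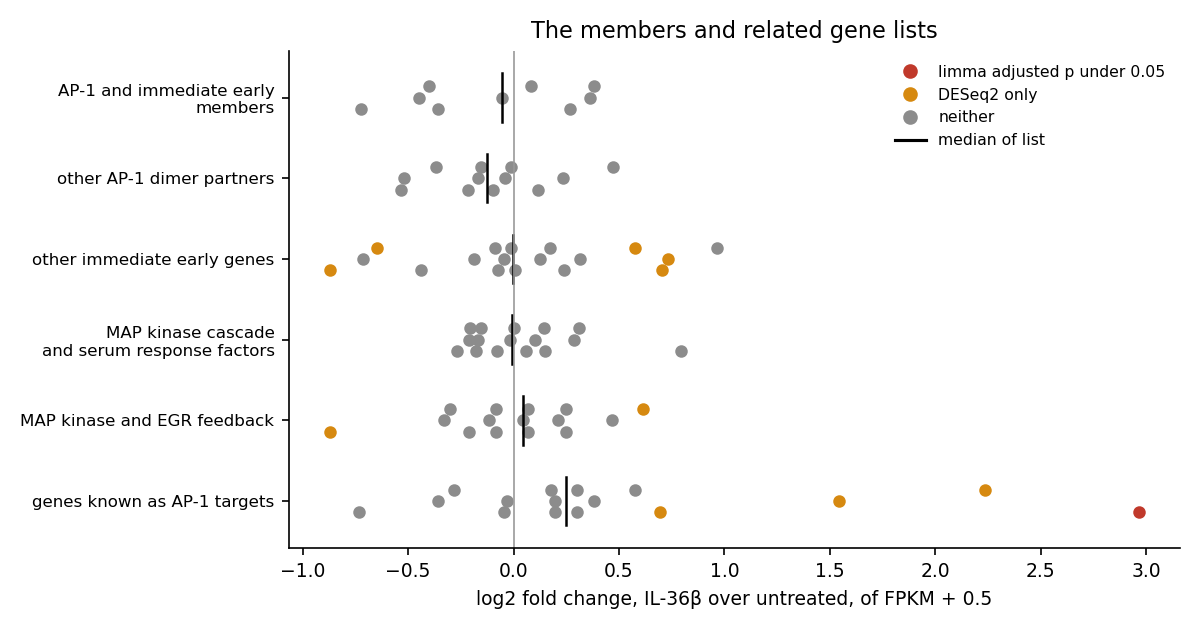
Fitted log2 fold change (IL-36β over untreated, of FPKM + 0.5) of each tested gene in the list of members and in 5 related lists, with a bar at the median of each list. The members lie between -0.72 and 0.38 on this scale, and the only gene past the limma threshold in any of the 6 lists is Il6.

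The genes whose pattern over the 6 libraries was most like that of Jun and of Fosl1 were listed as a description, by Pearson r of log2(FPKM + 0.5). For Jun they were Plod3 (r = 0.997), Cnot11 (r = 0.995) and Gsta4 (r = 0.989), and 208 genes had an r of at least 0.9 over these 6 libraries. For Fosl1 they were Psme2, a proteasome activator subunit (r = 0.995), Ppp1r11, a phosphatase inhibitor and ubiquitin ligase (r = 0.995), and Tnip1, a partner of A20 (r = 0.994), with 269 genes at an r of at least 0.9. Tnip1 stood at 82.3, 58.6 and 71.4 FPKM in IL-36β replicates 1 to 3, against 32.2, 30.6 and 23.1 FPKM in untreated replicates 1 to 3.

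Libraries held 15180389 to 18938592 reads in genes with IL-36β and 15439602 to 19544689 without. The 10 endothelial markers (Cdh5, Pecam1 and others) all had a mean FPKM of at least 0.5 and summed to 1735 to 2326 FPKM with IL-36β and 1740 to 2228 FPKM without. At an unadjusted limma p under 0.05, 2 of the 10 were higher and 1 was lower with IL-36β (10.4% over all genes). DESeq2 called 1, as higher, and 1 differed between the library sets in limma (1.74% of all genes). Of 8 pericyte and smooth muscle markers 5 reached a mean of 0.5 FPKM, and the list summed to 356 to 805 FPKM with IL-36β and 398 to 1359 FPKM without, most of it Acta2. Of the 5 tested in this list, 1 had a fold above 1 and 4 had folds below 1. Myh11, named after its values were seen, was the only 1 of them whose groups did not overlap. It was lower in all 3 IL-36β libraries, at 4.60, 3.90 and 2.055 FPKM, against 6.54, 11.7 and 6.02 FPKM in untreated libraries (limma adjusted p = 0.315, DESeq2 adjusted p = 0.00447). Over all genes 7.24% were lower without overlap and DESeq2 called 2.10%. The 6 microglia and macrophage markers summed to 0.0938 to 0.356 FPKM with IL-36β and 0.142 to 0.222 FPKM without. The 4 fibroblast markers summed to 0.700 to 1.40 FPKM with IL-36β and 0.472 to 0.635 FPKM without. For 4 astrocyte markers, 1 with a mean of at least 0.5 FPKM, the sums were 0.515 to 1.70 and 0.432 to 1.51 FPKM. For 4 oligodendrocyte markers they were 0.0789 to 0.156 and 0.0853 to 0.251 FPKM. Aqp4, Slc1a3, Snap25 and Olig2 had 0 reads in every library, while the other markers of their lists had reads. The neuronal list was carried by Tubb3, at 6.42 to 24.1 FPKM with IL-36β and 5.15 to 13.4 FPKM without. The part of these cell types in the AP-1 values was not tested.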

How the data were processed

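A stranded poly(A) RNA kit and an Illumina NextSeq were used, per the labels' protocols. Tools named without a role, per the submitters' processing notes, are HISAT2 2.05 and fastp, featureCounts 1.50-p3, DESeq2 1.38.3 and StringTie; the build is GRCm38. The authors deposited FPKM for 54532 genes, and for 660 genes also raw counts, a signal of counts over size factors, log2 fold changes and p-values. Gene length in the FPKM table comes from the authors' deposited file. Another 8 per-library columns of the table of 660 genes match no sample label and were not used here. Their names begin with B_24, C_24, C_0 or E_0. FPKM times gene length, divided by 1 factor per library, gave whole reads in 100% of values within 0.01. That factor was fitted to the deposited counts of the 660 genes, and the reads equal those counts in all 660.

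Columns were matched to samples by library name and grouped by title. Genes were tested with limma 3.58.1 in R 4.3.3, two-sided with a trended prior, on log2(FPKM + 0.5) for 12618 genes that reached 0.5 FPKM in 3 or more libraries. This scale understates the change of low genes. On reads simulated for this comparison (5 runs, 200 of 12400 to 12421 genes changed) the test found 50.9% of the 2-fold changes, 92.8% of those of 4-fold, and 0.102% of genes left unchanged. Alternatives were edgeR 4.0.16 and DESeq2 1.42.0 on recovered reads, other pseudocounts, filters and scalings, a robust prior, blocks, the library set as a term and leaving out each library. Counts of replicates were farther apart than counting error, with a chi-square of 11.0 to 40.5 per degree of freedom. The members, gene lists and alternatives were chosen with earlier results of these data known. Named genes were all members, up to 4 genes past the threshold or else the 2 most abundant per related list, and the 3 genes most like the most abundant member and the member with the smallest p. Most abundant there means the highest mean FPKM, taken over the 6 libraries. The symbol Ddit3 has 2 gene identifiers, and the longer gene was used. Promoters came from RefSeq, GRCm38.p6. Single-gene results of some list genes are not reported here.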

Additional observations from a re-analysis of the deposited data

How the results depend on the processing

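No member passed the threshold under any of 19 alternative settings with a test. The median log2 fold change of the members, -0.06 in the main test, moved by less than the spread between libraries under all 21 settings. That spread, an SD of 0.29 within groups, is larger than the median itself, so this is a loose bound. The sign of the median changed without IL-36β replicate 1 (0.014) and without untreated replicate 3 (0.034). Over all genes 23 passed in the main test. This count was 0 with no filter, 15 after TPM scaling, 37 in edgeR, 260 in DESeq2 and 102 with the library set as a term, and 2 to 8 when 1 library was left out. With a replicate block it was 13 by the number in the titles and 78 by library letter. Same-numbered libraries did not deviate together in every pair (r = 0.207, -0.141 and 0.211 for numbers 1 to 3). Both pairs that share a letter had a positive r (0.207 for A, which is also number 1, and 0.275 for D). So did number 3 (r = 0.211), whose letters E and D differ. The letters pair only 4 of the 6 libraries and the labels do not say what they stand for. The main test has no block. In the related lists 1 gene passed in the main test, against 0 with no filter, 3 with the letter block, 5 with the set term, 11 in DESeq2 and 1 to 2 when 1 library was left out. The cause of these shifts was not tested.

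The fitted log2 fold change of Jun, 0.08 in the main test, was -0.0035 after TPM scaling, -0.0195 with the letter block, -0.0049 within letters D and E and -0.011 to 0.14 when 1 library was left out. That of Fosl2, -0.06 in the main test, was -0.11 to 0.034 when 1 library was left out. Fos, Fosb, Fosl1, Junb, Jund, Atf3 and Egr1 kept their sign under all 21 settings. With 3 libraries per group, changes under 2-fold are often missed, and Batf3 was too shallow to compare.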
